A study of Mus musculus with 21 samples.

Results

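Deletion of Lmna was examined in the hearts of mice that carry the Uprt transgene, in 14 of the 21 libraries of the study. These are all 6 libraries of Lmna F/F mice (4 females and 2 males) and all 8 of Lmna +/+ mice (4 females and 4 males) that were Tg/0 for Uprt. They were chosen by genotype alone. Every mouse in both groups was also Tg/0 for Myh6MCM, a Cre recombinase that tamoxifen activates and that the cardiomyocyte promoter of Myh6 drives. Every mouse received tamoxifen for 4 days at 6 to 8 weeks of age, then 4-thiouracil 2 weeks later, and hearts were taken 6 hours after that. The +/+ mice therefore also had active Cre, and the groups differ by the floxed (F) alleles. RNA came from the free wall of the left ventricle, a mixture of cell types, so the recombinase could delete Lmna in only some of the cells that gave RNA. The labels do not say which promoter drives Uprt. Each library is 1 mouse, so the p-values below measure the spread between mice.

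Lmna encodes lamins A and C, intermediate filament proteins that line the inside of the nuclear envelope and anchor chromatin to it. Mutations of the human gene cause dilated cardiomyopathy with conduction disease. Uprt is an enzyme that converts 4-thiouracil into a nucleotide, so that cells with the transgene build it into the RNA they make. Alkylation with iodoacetamide makes each such base read as a T>C conversion. A read with a conversion (a T>C read) marks RNA made after the label was given, or a background conversion, and the count of all reads follows total RNA. The 2 readouts were set side by side to separate a change in RNA made within 6 hours from a change in RNA present.

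The reads were counted on 3′ UTR intervals (mm39 build). Of intervals that overlap on 1 strand the most read was kept, which left 121259 loci, 64985 of them with reads. The 14 libraries held 25975911 to 47723562 reads on these loci and 1252800 to 2421214 T>C reads. Mitochondrial loci took 23.7% to 33.5% of the reads. The deposited rows name transcripts and no genes, and 0 of their 90406 transcript IDs appear in the reference table at hand. Loci are therefore given by position. Lmna itself and the defining markers of heart cell types were not looked up, so the labelled tissue was not checked against its markers. In RNA of a whole tissue, fewer cells of a type and less RNA per cell cannot be told apart.

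The share of reads with a conversion was nearly the same in F/F and +/+ hearts. Per mouse it was 4.53% at the lowest, 4.81% at the median and 5.93% at the highest in the +/+ mice with Uprt. In the F/F mice with Uprt the lowest was 4.78%, the median 5.01% and the highest 5.46%. All F/F values lay inside the +/+ range. The means were 4.92% ± 0.451 (SD, n = 8) and 5.07% ± 0.271 (SD, n = 6), a difference of 0.147 percentage points. A two-sided exact permutation test gave p = 0.507, where 0.000666 is the smallest p that 8 against 6 mice allow. In females alone the difference turned to -0.0265 points (exact permutation p = 0.943, n = 4 and 4). Without +/+ Uprt replicate 3, the highest +/+ mouse, it was 0.291 points (exact permutation p = 0.0559, n = 7 and 6). It was also under 0.147 by over 1.5 times without F/F Uprt replicate 3 (0.0947), F/F Uprt replicate 5 (0.0692) or +/+ Uprt replicate 5 (0.0902).

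On nuclear loci alone the mean share was 5.02% ± 0.452 in +/+ (SD, n = 8) and 5.30% ± 0.329 in F/F (SD, n = 6), with an exact permutation p of 0.219. On mitochondrial loci it was 4.69% ± 0.719 and 4.50% ± 0.360 (exact permutation p = 0.576, n = 8 and 6). The median share over 6769 loci that gain label was 6.86% ± 1.20 in +/+ and 7.21% ± 0.889 in F/F, with an exact permutation p of 0.551 (n = 8 and 6). Over the 6 such library measures compared, the lowest p adjusted by Benjamini-Hochberg was 0.509. In none of them was the difference larger than the spread between mice. For comparison, mice without Uprt had 2.68% to 3.85% T>C reads on nuclear loci, below the 4.54% to 5.96% of the mice with it. For all mitochondrial reads the ranges with and without Uprt overlapped, at 3.95% to 5.87% with it and 3.24% to 5.11% without. By locus, edgeR called the T>C share higher with Uprt at 12 of 14 mitochondrial loci tested and lower at 0. At mt-Rnr2, the large rRNA, it was 1.25% to 1.52% in mice with Uprt and 1.02% to 1.20% in mice without. At the tRNA gene TrnW, which was not called, the ranges overlapped, at 25.9% to 29.3% with Uprt and 26.3% to 28.7% without.

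**Figure D1:**
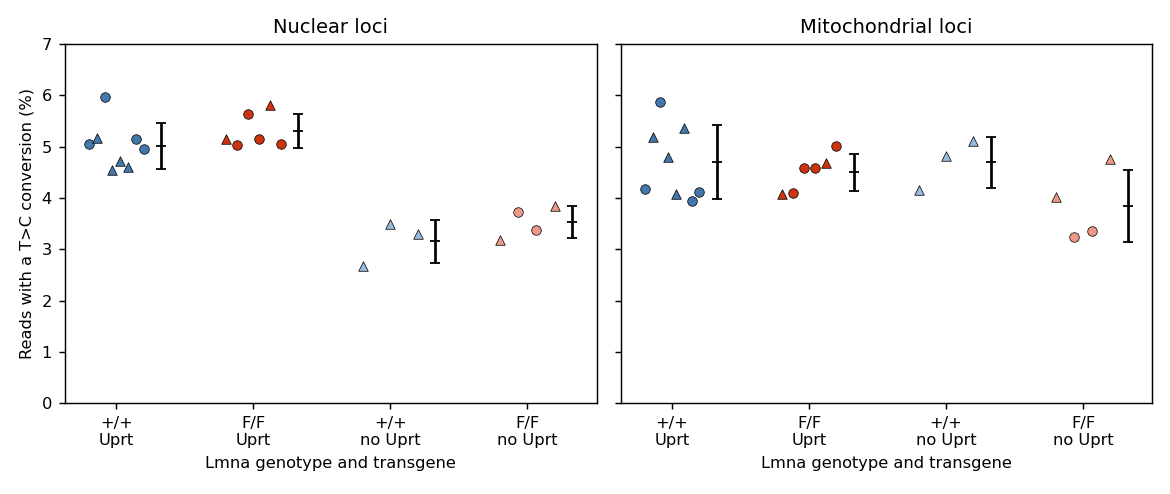
Percentage of T>C reads in each of the 21 mice, on nuclear loci (left) and mitochondrial loci (right), by Lmna genotype and Uprt; circles are females, triangles males, and the bar is the mean with its SD. On nuclear loci the F/F mice with Uprt (5.04% to 5.81%) lie within the range of the +/+ mice with Uprt (4.54% to 5.96%), and all mice without Uprt lie lower.

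Total RNA differed at many loci. Of 25589 loci tested for all reads, 790 rose in F/F (3.09%) and 384 fell (1.5%) at an adjusted p of 0.05 in edgeR's quasi-likelihood test with Benjamini-Hochberg adjustment. The rises were the larger changes. Their median log2 fold change was 1.08, and 442 of them were at least 1 on that scale. The median of the falls was -0.44, and 27 of them reached -1. Over all loci tested the median was -0.02. The 6 F/F mice lay entirely above the 8 +/+ mice at 381 of the 790 risen loci, and entirely below them at 104 of the 384 fallen ones. These loci were chosen for their difference in the same mice, so the counts describe the calls and are no test. No count over all loci tested was set beside them. The count of falls depended on scaling: with library size alone, without the TMM factors, the median of all loci moved by 0.17 on the log2 scale, and 1521 loci were higher and 59 lower. It depended on single libraries too. Without F/F Uprt replicate 1 the test called 544 rises and 184 falls (728 in place of 1174), and without F/F Uprt replicate 2 it called 589 and 159 (748). With any other F/F or +/+ library left out, rises numbered 635 to 826 and falls 220 to 504. The falls were below 384 by over 1.5 times also without F/F Uprt replicate 3 (225), 4 (234) or 5 (220), and without +/+ Uprt replicate 4 (253).

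Risen and fallen loci differed in abundance and in how much label they gained. The median of the mean level was 4.40 CPM (the usual depth-scaled count, with library sizes adjusted by TMM) at risen loci, 42.5 CPM at fallen loci and 2.40 CPM over all loci tested. Their intervals were of like length, with medians of 884 and 880 bases, against 653 bases over all. The median T>C share in mice with Uprt was 3.91% at risen loci and 5.44% at fallen ones, and without Uprt it was 2.69% and 2.28%. Over all loci tested the medians were 5.93% with Uprt and 2.39% without. A locus counts as labelled where its T>C share was called higher with Uprt than without in all 21 libraries (55.2% of 13539 loci tested). By that measure 26.0% of the 531 risen loci with a labelling test were labelled, against 77.1% of 358 fallen loci and 55.9% of 12621 loci without a call in all reads. Since the fallen loci had far more reads, and a locus with more reads is more easily called labelled, the part of depth in this contrast was not tested.

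All loci with a labelling value were also put into 4 groups of like size, by the share with Uprt minus the share without. In the group with the least gain, at most 1.19 percentage points, 8.61% of 3378 loci rose and 3.08% fell. In the second group 3.08% rose and 3.55% fell. In the third 2.13% rose and 1.98% fell. In the group with the most gain, 6.50 points or more, 1.89% rose and 1.98% fell. Rises were thus concentrated where little label was gained, and falls were spread more evenly.

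Among loci with a mean of at least 1 CPM, the largest rise was at chr4:63878022-63878669 (transcript ENSMUST00000030056.12). In the +/+ mice it was at 0.138 CPM at the lowest, 0.478 at the median and 0.620 at the highest, and in the F/F mice at 4.45, 9.39 and 18.0. The groups did not overlap, and its log2 fold change in all reads was 4.56 ± 0.32 (SE; edgeR adjusted p = 5.35e-08). It had 87 T>C reads in all 6 F/F mice together and 6 in the 8 +/+ mice, too few for the test of T>C reads.

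The next among these loci was chrX:20740872-20740974 (transcript ENSMUST00000009530.5), a more abundant RNA. It ranged from 2.75 to 13.1 CPM in +/+ mice with a median of 5.93, and from 36.9 to 121 CPM in F/F mice with a median of 87.1. Every F/F mouse again lay above every +/+ mouse, with a log2 fold change of 3.84 ± 0.25 in all reads (edgeR adjusted p = 1.54e-08). Its T>C reads rose by nearly the same factor, with a log2 fold change of 3.98 ± 0.44 (edgeR adjusted p = 0.000179). The share of its reads with a conversion had a median of 1.57% in +/+ and 2.44% in F/F, and was not called in the share test (log2 odds ratio 0.18 ± 0.34). Neither of these loci was labelled: their T>C share was not called higher with Uprt than without.

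At chr14:47623138-47623617 all reads went from 5.18, 6.73 and 10.8 CPM (lowest, median and highest in +/+) to 35.9, 57.9 and 77.6 CPM in F/F. There was no overlap between the groups. The log2 fold change was 3.01 ± 0.19 for all reads (edgeR adjusted p = 1.17e-08) and 4.22 ± 0.54 for T>C reads (edgeR adjusted p = 0.000358), the largest T>C change among called loci with a mean of at least 1 T>C CPM (CPM taken over T>C reads). The share test, which compares the 2 changes, gave a log2 odds ratio of 1.05 ± 0.51 and did not call the locus. T>C reads here were at 0 to 7.62 T>C CPM in +/+ mice and 20.8 to 87.6 in F/F mice. This locus was not labelled, so its T>C rise is not shown to be newly made RNA.

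At chr9:123906844-123909544 the +/+ mice had 0.448 to 2.40 CPM and the F/F mice 6.24 to 13.0 CPM, again without overlap. The log2 fold change was 2.82 ± 0.32 for all reads (edgeR adjusted p = 9.65e-06) and 3.41 ± 0.58 for T>C reads (edgeR adjusted p = 0.0057). At chr9:119877749-119880335 the ranges were 0.536 to 3.85 CPM and 12.1 to 18.0 CPM, and at chr7:4143106-4143451 they were 0.160 to 0.689 CPM and 2.70 to 4.96 CPM. Both rose without overlap, by 2.88 ± 0.27 and 2.95 ± 0.26 on the log2 scale, and T>C reads of both were too few to test.

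Of the 12 loci with the largest rises and a mean of at least 1 CPM, 10 had groups that did not overlap. The exceptions were chr5:91051732-91053797, where 1 F/F mouse had 0.454 CPM and the highest +/+ mouse 0.593, and chr7:46361422-46361549. At the latter, +/+ Uprt replicate 2 stood at 24.1 CPM while the +/+ median was 0.545, and F/F Uprt replicate 1 stood at 32.5 CPM while the F/F median was 6.18. The call at that locus (log2 fold change 2.84 ± 0.72) was lost without +/+ Uprt replicate 1, +/+ Uprt replicate 7 or F/F Uprt replicate 1. The calls at the other 11 held with every library left out in turn.

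**Figure D2:**
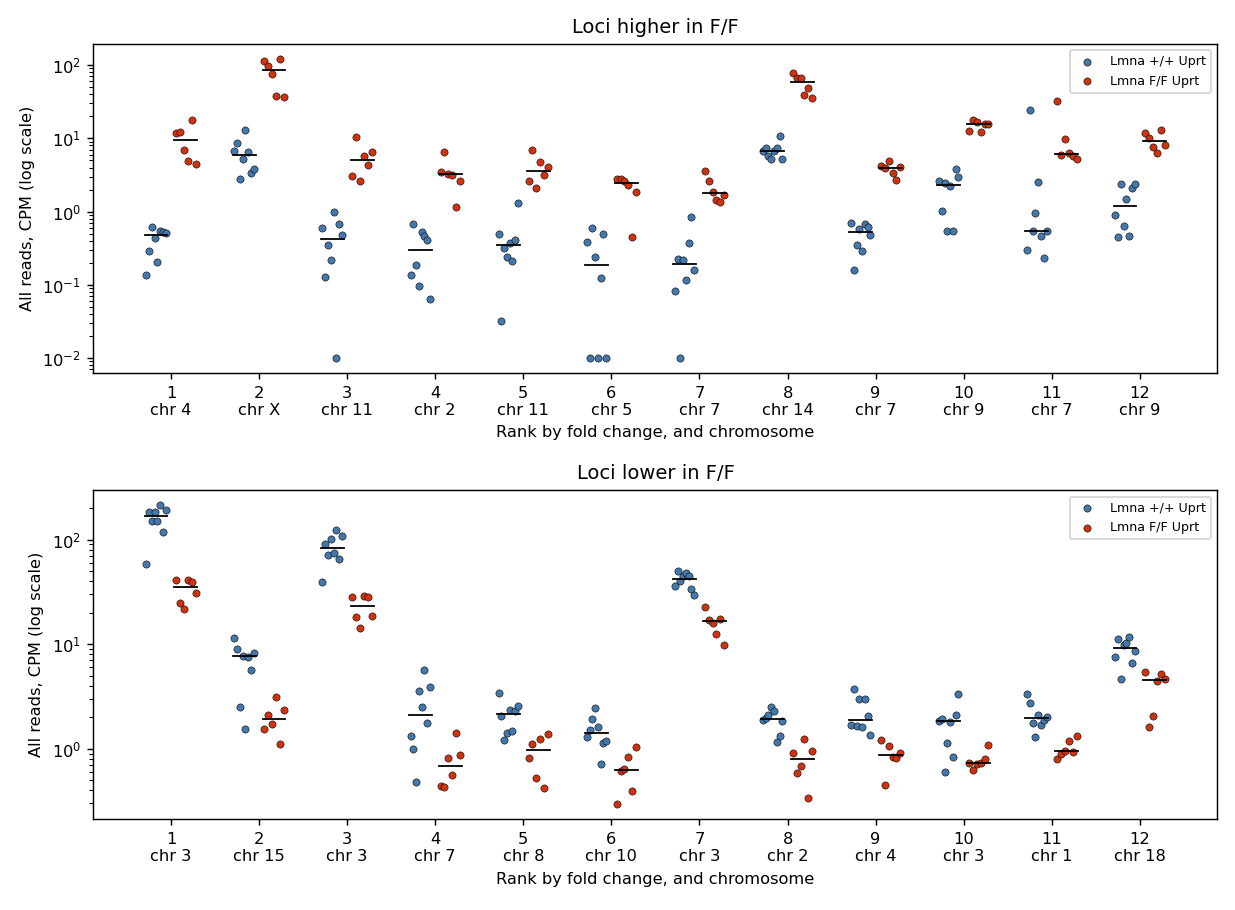
All reads in CPM (log scale, with values under 0.01 drawn at 0.01) in each of the 8 +/+ (blue) and 6 F/F (red) mice with Uprt, at the 12 loci with the largest rises (top) and the 12 with the largest falls (bottom) among loci called with a mean of at least 1 CPM; bars are medians. The groups are apart at 10 of the 12 risen loci, and the falls are smaller, with ranges that mostly overlap.

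Some rises lay close together on a chromosome. The positions were read after the calls were known, as runs of at least 4 called loci with gaps of at most 100000 bases, so the counts describe the calls and are no test. On chromosome 11, between positions 81927309 and 82007625, 4 of the 4 loci tested rose by 2.26 to 3.49 on the log2 scale. They included chr11:81927309-81928276, which went from 0 to 0.982 CPM in +/+ mice to 2.59 to 10.3 CPM in F/F mice, and chr11:81937917-81938351, from 0.0320 to 1.33 CPM to 2.09 to 7.02 CPM. Neither pair of ranges overlapped. The fourth, chr11:82007461-82007625, also rose in T>C reads, by 2.43 ± 0.38 (edgeR adjusted p = 0.00329), and by 2.79 ± 0.23 in all reads. It was not labelled, so its T>C rise is not shown to be newly made RNA.

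Further along chromosome 11, 4 of 4 loci tested between 82869216 and 83013496 rose by 1.00 to 2.61, and 6 of 6 between 83416604 and 83597094 rose by 1.17 to 3.94. The lone locus there with a call in T>C reads was chr11:83478708-83479650, with log2 fold changes of 1.55 ± 0.15 for all reads and 1.71 ± 0.31 for T>C reads (edgeR adjusted p = 0.00899). That locus was not labelled either. On chromosome 19, 6 of 8 loci tested between 11403701 and 11564449 rose. On chromosome 17, 6 of 11 rose between 34356191 and 34535648 and 5 of 15 between 35075350 and 35277725. Of 9 loci tested on chromosome 15 between 78407548 and 78506219, 5 rose and 1 fell. Of the 57 loci tested in these 7 stretches, 36 rose in all reads and 1 fell. In T>C reads 17 of them were tested and 3 rose, where 0.413% of all loci tested rose. T>C reads are part of all reads, by which these stretches were chosen, so that rate is no fair reference. Of all risen loci, 332 were tested in T>C reads and 41 rose. For labelling 29 were tested and 4 were labelled, where 55.2% of all loci tested and 26.0% of risen loci tested were.

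Among loci with a mean of at least 1 CPM, the largest fall lay at chr3:63388533-63388614 (transcript ENSMUST00000192926.2). It stood at 57.9 CPM at the lowest, 166 at the median and 213 at the highest in +/+ mice, and at 21.7, 35.1 and 41.4 in F/F mice. The groups did not overlap. All reads fell by 2.16 in log2 terms (SE 0.20; edgeR adjusted p = 1.02e-06) and T>C reads fell by 2.34 (SE 0.45; edgeR adjusted p = 0.0129). The T>C call was lost without F/F Uprt replicate 1. The T>C share was 0.402% to 1.27% in +/+ and 0.359% to 1.30% in F/F mice with Uprt. Without Uprt it was 0.896% to 1.05% and 0.353% to 1.35%. T>C reads here were thus at the background level, and their fall cannot be read as less newly made RNA. A second interval of the same transcript, chr3:63388707-63388710, is only 4 bases long and lies so close that it can hold the same reads. It fell by 1.82 for all reads and by 2.27 for T>C reads, and its T>C call was lost without any of 11 of the 14 libraries. Its T>C share was low too, at most 2.26% in mice with Uprt and 1.26% in mice without.

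A further fall on the same chromosome was at chr3:88390512-88390603, from 29.4 to 50.1 CPM in +/+ mice to 9.86 to 22.8 CPM in F/F mice, without overlap. Its log2 fold change was -1.30 ± 0.12 for all reads (edgeR adjusted p = 9.15e-07) and -1.30 ± 0.52 for T>C reads, where it was not called (edgeR adjusted p = 0.614). The 2 estimates match, and the error of the second is over 4 times that of the first. The reference table places Lmna on chromosome 3. Over that chromosome 3.02% of 1455 loci tested rose and 1.79% fell, close to the 3.09% and 1.5% over all chromosomes. The position of Lmna on this build was not looked up. These rates therefore do not show whether the locus above, or any other changed locus, lies in or near Lmna.

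At chr15:78416824-78416997 (transcript ENSMUST00000230340.2) the +/+ mice had a median of 7.65 CPM and the F/F mice 1.91, but the ranges of 1.53 to 11.5 and 1.11 to 3.15 overlapped (log2 fold change -1.84 ± 0.35; edgeR adjusted p = 0.00282). The other 8 of the 12 largest falls were between -1.60 and -1.08 on the log2 scale. Of all 12, the groups were apart at 4. The calls at chr7:92649259-92650026, chr10:83421657-83421748 and chr3:95791266-95791549 were each lost when any 1 of several libraries was left out (9, 5 and 12 of the 14). Of the 341 falls tested in T>C reads, 275 were at labelled loci, where 6818 of all 10405 loci tested in T>C reads were labelled.

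The mitochondrial intervals equal whole rRNA and tRNA genes in the reference table, 16 of 16, so these carry names. Of 15 tested, 1 fell in all reads: the tRNA gene TrnH, by 0.46 in log2 terms (edgeR adjusted p = 0.0261). TrnH took only 0.00925% of reads in +/+ and 0.00763% in F/F, and 12.4% of its reads were multimapped. At TrnD, TrnK and TrnG 99.9% were multimapped. The tRNA intervals are shorter than the 100-base reads, so reads of neighbouring RNA can be counted on them. The 2 rRNA genes held most of the mitochondrial reads. mt-Rnr2, the large rRNA, took 17.2% of reads in +/+ and 16.3% in F/F, with a log2 fold change of -0.23 that was not called (edgeR adjusted p = 0.162). mt-Rnr1, the small rRNA, took 5.88% and 5.80%. All 15 estimates were below 0, from -0.73 to -0.12 with a median of -0.34, but with library size alone they ran from -0.54 to 0.06 and the call of TrnH was lost (0 called by edgeR, 3 at an unadjusted p under 0.05). With TMM, 11 of the 15 had an unadjusted p under 0.05 in edgeR, and DESeq2 called 4. In T>C reads 14 were tested and 0 were called by edgeR or DESeq2, where 5 had an unadjusted p under 0.05 in each, against 0 in edgeR with library size alone. The share of reads on mitochondrial loci was 27.0% to 33.5% in +/+ mice (median 29.8%, SD 1.85, n = 8) and 23.7% to 31.0% in F/F mice (median 28.8%, SD 2.52, n = 6), with an exact permutation p of 0.154 for the difference of means of -1.83 percentage points.

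T>C reads gave far fewer calls. Of 10405 loci tested, 43 rose in F/F (0.413%) and 8 fell (0.0769%) by edgeR's quasi-likelihood test with Benjamini-Hochberg adjustment. The median log2 fold change of the 43 was 1.60. Among them the 6 F/F mice lay entirely above the 8 +/+ mice at 30, which likewise only describes loci chosen in these mice. All reads rose at 41 of the 43, with a median of 1.07 over the 43, and the remaining 2 are the neighbouring loci on chromosome 2 described further on. Of the 43, 13 were labelled, where 6818 of all 10405 loci tested in T>C reads were.

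The other side of this comparison is what became of the changes in all reads. Of the 790 risen loci, 41 also rose in T>C reads, 291 were tested without a call, 458 had too few T>C reads to test and 0 fell. Of the 384 fallen loci, 4 also fell in T>C reads, 337 were tested without a call, 43 were not tested and 0 rose. The precision of the 2 readouts differs. At loci tested in both, the median standard error of a log2 fold change was 0.13 for all reads and 0.33 for T>C reads. A missing call in T>C reads therefore does not show that newly made RNA was unchanged.

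The estimates themselves moved together. At the 332 risen loci tested in T>C reads, 317 had a T>C fold change of the same sign, and the medians were 0.74 for all reads and 0.84 for T>C reads. Of these loci 117 were labelled, with medians of 0.61 and 0.64 and the same sign at 115. The 215 that were not labelled had medians of 0.87 and 0.98 and the same sign at 202. T>C reads at loci that are not labelled can be background, so like estimates there do not show a change in newly made RNA. At the 341 fallen loci 308 had the same sign, and the medians were -0.42 and -0.29. The 275 labelled ones among them had medians of -0.41 and -0.27, and the 66 not labelled -0.46 and -0.38. At the 9732 loci without a call in all reads, 6454 had the same sign. The median of the T>C value minus the all-read value was 0.06 at risen loci, 0.15 at fallen loci and 0.07 at loci without a call in all reads. Over all 10405 loci the Pearson correlation of the 2 log2 fold changes was 0.60, as a description across loci; T>C reads are part of all reads and come from the same libraries, so the values are not independent.

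**Figure D3:**
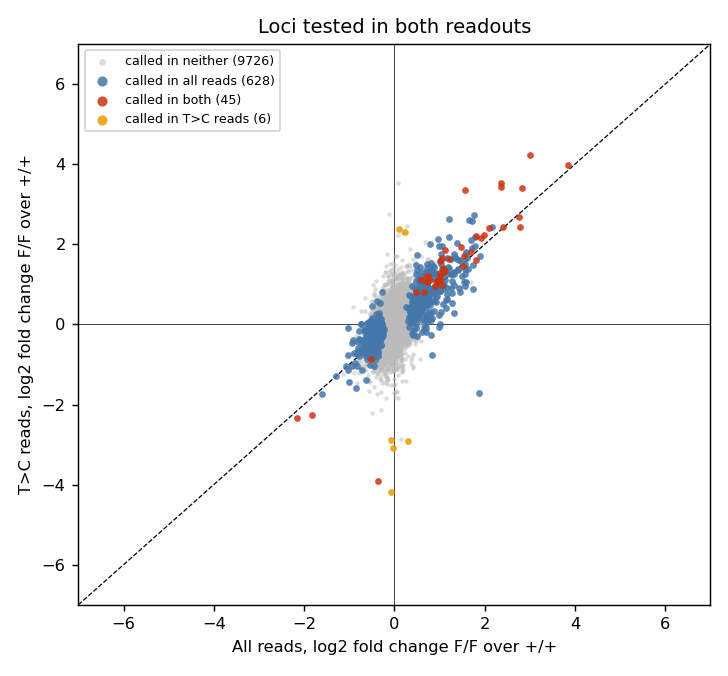
Log2 fold change of F/F over +/+ with Uprt in all reads (horizontal) and in T>C reads (vertical) at the 10405 loci tested in both, coloured by which readout called the locus; the dashed line marks equal change. Most called loci follow the line, and 4 of the 6 loci called in T>C reads alone lie near 0 in all reads and far below 0 in T>C reads.

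Whether T>C reads and all reads changed by different factors at a locus was tested directly, on converted against unconverted reads. Of 10393 loci, 4 were called (0.0385%) in edgeR's quasi-likelihood test, 2 with a higher and 2 with a lower share in F/F. At an unadjusted p of 0.05 there were 392. The share estimate was higher in F/F at 180 of 332 risen loci, at 254 of 341 fallen loci and at 5408 of 9720 loci without a call in all reads. These counts follow from the smaller T>C changes at fallen loci given above and carry no test of their own.

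Several loci rose in T>C reads without overlap between the groups. At chr6:129341026-129342266 the +/+ mice had 0 to 2.78 T>C CPM with a median of 0.537, and the F/F mice 5.64 to 15.8 with a median of 9.57. T>C reads rose by 3.53 ± 0.61 in log2 terms (edgeR adjusted p = 0.00642) and all reads by 2.37 ± 0.33. At chr8:71082043-71082192 T>C reads went from 0 to 4.68 T>C CPM to 11.4 to 36.4, a log2 fold change of 3.42 ± 0.53 against 2.36 ± 0.30 in all reads. At chr4:133820847-133821037 they went from 1.07 to 8.65 T>C CPM to 12.8 to 33.1, with like changes of 2.44 ± 0.42 and 2.40 ± 0.18. None of these 3 loci was labelled, and the first 2 had a T>C share of at least 20% in a mouse without Uprt, as 9 of the 43 did.

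The labelled loci among the 10 largest T>C rises were chr10:43458762-43460261, chr14:70316188-70320063 and chr19:15882042-15883409. At the first, +/+ mice had 0 to 2.89 T>C CPM and F/F mice 8.32 to 12.1, and T>C reads rose by 3.34 ± 0.62 against 1.57 ± 0.21 in all reads. Its share of reads with a conversion had a median of 0.935% in +/+ and 7.76% in F/F, a log2 odds ratio of 1.91 ± 0.67 that was not called (edgeR adjusted p = 1). At the third, T>C reads went from 0.963 to 4.79 T>C CPM to 6.04 to 18.2, and rose by 2.41 ± 0.45 against 2.09 ± 0.23 in all reads. Both of these T>C calls were lost without F/F Uprt replicate 1. At the chromosome 14 locus the ranges of T>C CPM overlapped, and its T>C call (log2 fold change 2.68 ± 0.58) was lost when any of 11 of the 14 libraries was left out.

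The 8 loci that fell in T>C reads included several with a high T>C share in mice without Uprt. On chromosome 3 lie 5 of the 8, where 5.33% of the loci tested in T>C reads lie. In 5 of the 8, not all the same ones, a mouse without Uprt had a T>C share of at least 20% over at least 20 reads, which 10.3% of all loci tested in T>C reads had. All reads were without a call at 4 of them. The other 4 are the pair at 63388533 and 63388707 described above, chr9:37449079-37449615 and chr11:116329132-116329903. The last is the only 1 of the 8 that was labelled without a high share in a mouse lacking Uprt. Its T>C reads fell by 0.87 in log2 terms (SE 0.18; edgeR adjusted p = 0.0246) and its all reads fell by 0.53 (SE 0.14). T>C CPM there was 45.1 to 87.2 in +/+ mice and 24.6 to 44.1 in F/F mice, without overlap, and 21.2% of its reads were multimapped.

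At chr3:102052513-102052664 the +/+ mice formed separate levels. In 5 of them (replicates 3, 4, 5, 6 and 7) 29.5% to 32.3% of reads carried a conversion, and in the other 3 it was 1.37% to 1.85%. All 6 F/F mice had 1.49% to 3.04%. Without Uprt, 1 of 3 +/+ mice had 32.0% and the other two 0.507% and 0.565%, and the 4 F/F mice had 0.503% to 0.774%. All reads were alike in both groups, at 278 to 439 CPM in +/+ and 282 to 442 CPM in F/F with Uprt. The fall in T>C reads (log2 fold change -3.09 ± 0.66; edgeR adjusted p = 0.0358) thus rests on a level that 5 of 8 +/+ mice showed, and that also appeared in a mouse without Uprt. The call was lost without any of 11 of the 14 libraries.

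A like split was seen at other loci. At chr15:78043663-78043809, 6 of 8 +/+ mice had 42.9% to 54.5%, while the other two had 0 T>C reads of 172 and of 80, which allows a share of up to 1.74% and 3.75%, and the F/F mice had at most 4.35%. There 3 of 4 F/F mice without Uprt had 34.8% to 48.3%, so the high level was not limited to +/+ mice. At chr9:37449079-37449615, 4 of 8 +/+ mice had 27.9% to 35.9% and the other 4 had 1.58% to 6.12%, the F/F mice had 0.917% to 1.84%, and 2 of 4 F/F mice without Uprt had 26.4% and 31.0%. At chr3:96128863-96131054 the +/+ mice ranged from 6.63% to 30.6% and the F/F mice reached at most 6.71%. Without Uprt, 1 of 3 +/+ mice had 24.8% and the other two 0.441% and 5.90%.

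The lowest adjusted p in the share test was at chr3:89156174-89156447. All 8 +/+ mice with Uprt had 30.6% to 46.8% of reads with a conversion (median 39.3%) and all 6 F/F mice 0.450% to 6.13% (median 4.80%). The groups did not overlap, and the log2 odds ratio was -4.03 ± 0.47 (edgeR adjusted p = 0.000593). All reads were without a call there (log2 fold change 0.30 ± 0.22; edgeR adjusted p = 0.541), at 2.13 to 5.66 CPM and 2.61 to 6.59 CPM. Without Uprt, 1 of 3 +/+ mice had 36.8% (95% Wilson interval 28.6% to 46.0%, for counting error only). The other two each had 0 T>C reads of 125, which allows a share of up to 2.40%, and the F/F mice had 0.420% to 3.76%.

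At chr11:94842446-94843868 total RNA rose and T>C reads were not called. All reads went from 48.2 to 77.9 CPM in +/+ to 101 to 176 CPM in F/F, without overlap (log2 fold change 1.02 ± 0.12; edgeR adjusted p = 2.14e-05). T>C CPM had a median of 277 in +/+ and 248 in F/F, a log2 fold change of 0.01 ± 0.15. The share fell from a median of 21.9% to 10.8%, with ranges of 18.7% to 28.8% and 7.69% to 13.0% (log2 odds ratio -1.23 ± 0.16; edgeR adjusted p = 0.00219). The locus was not labelled: mice without Uprt had much the same shares, at 24.0% to 25.5% in +/+ and 4.97% to 13.2% in F/F. The conversions counted there were therefore present without the transgene.

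Adjoining loci on chromosome 2 went the other way. At chr2:13587284-13587289, 7 of 8 +/+ mice had 6.06% to 8.03% of reads with a conversion, +/+ Uprt replicate 1 had 75.0% (95% Wilson interval 74.0% to 76.0%), and the 6 F/F mice had 57.9% to 69.2%. The log2 odds ratio was 4.15 ± 0.62 (edgeR adjusted p = 0.0085). At chr2:13587295-13587636 the same 7 mice had 4.89% to 6.99%, replicate 1 had 56.5% and the F/F mice 38.0% to 54.3% (log2 odds ratio 3.28 ± 0.53; edgeR adjusted p = 0.0166). All reads were called at neither. In replicate 1 the T>C reads numbered 5340 of 7119 at the first locus and 5397 of 9548 at the second. Without Uprt, 1 of 3 +/+ mice and all 4 F/F mice were at the high level, with 78.7% and 47.9% to 71.4% at the first of these loci. The intervals are 5 bases apart and can hold the same reads. Both calls were lost without F/F Uprt replicate 1, F/F Uprt replicate 5, +/+ Uprt replicate 7 or +/+ Uprt replicate 8, which each left 2 share calls, and the second also without F/F Uprt replicate 3 or +/+ Uprt replicate 3.

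Leaving out the loci with a T>C share of at least 20% in a mouse without Uprt removed all 4 share calls (0 by edgeR, with 350 at an unadjusted p under 0.05). A refit of T>C reads without them called 39 loci higher and 3 lower, and 37 of these 42 were among the 51 called with all loci. The cause of the separate levels was not tested. Over the 929 high-share loci with enough reads, the ranges of +/+ and F/F mice were apart at 4 (0.431%), against 10 of 10219 over all loci (0.0979%), and all 4 were lower in F/F.

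**Figure D4:**
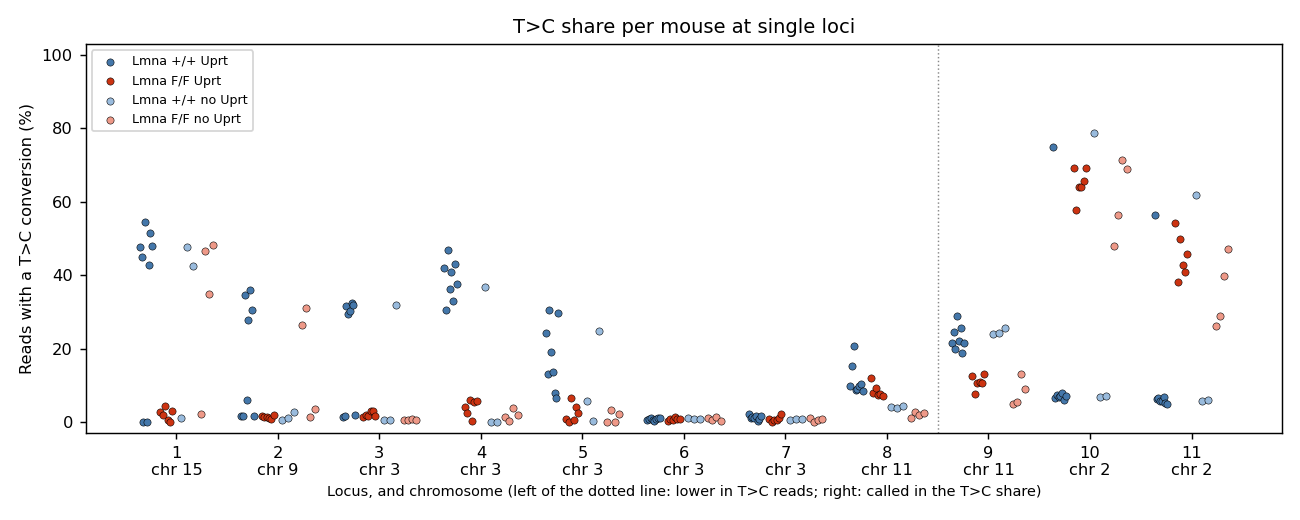
Percentage of T>C reads in each of the 21 mice at the 8 loci lower in T>C reads (left of the dotted line, in order of fold change) and the 3 further loci called in the T>C share (right), coloured by group. At most of these loci mice without Uprt show the same separate levels as mice with it, as at locus 4 (chromosome 3), where 1 mouse without Uprt has 36.8% and the 8 +/+ mice with Uprt have 30.6% to 46.8%.

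The mice without Uprt had no part in these calls of all reads and T>C reads, and their levels at the called loci can be set beside them. The 3 +/+ mice without Uprt were all male, as were 2 of the 4 F/F mice without it. Each value is a mouse's median log2 difference from the +/+ mean with Uprt, with 0.5 added to each CPM. At the 790 loci that rose in all reads, the 3 +/+ mice without Uprt were at -0.04 to 0.03 and the 4 F/F mice without it at 0.44 to 1.61. The F/F mice with Uprt, from which the loci were chosen, were at 0.71 to 1.06. At the 384 fallen loci the +/+ mice without Uprt were at -0.08 to 0.11 and the F/F mice without it at -0.92 to -0.23, and those with Uprt were at -0.49 to -0.31. The F/F mice without Uprt were above or below all 3 of their +/+ controls at these medians, and differed more among themselves than those with Uprt did.

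T>C reads showed the same direction in mice without the transgene. At the 43 loci higher in T>C reads, the +/+ mice without Uprt were at 0.40 to 0.54 and the F/F mice without it at 1.43 to 3.56, against 1.29 to 1.85 in the F/F mice with Uprt. A rise of T>C reads at these loci was thus also present where no Uprt was carried. Tested alone, the T>C reads of the mice without Uprt gave 4 calls of 7908 loci (0.0506%), all higher in F/F, in edgeR's quasi-likelihood test, and 84 in DESeq2. Leaving out 1 library in turn gave 3 to 14 calls there. The most came without F/F no Uprt replicate 3 (14) and without its replicates 1 and 4 (11 each), then +/+ no Uprt replicate 1 (9), F/F no Uprt replicate 2 and +/+ no Uprt replicate 2 (7 each).

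**Figure D5:**
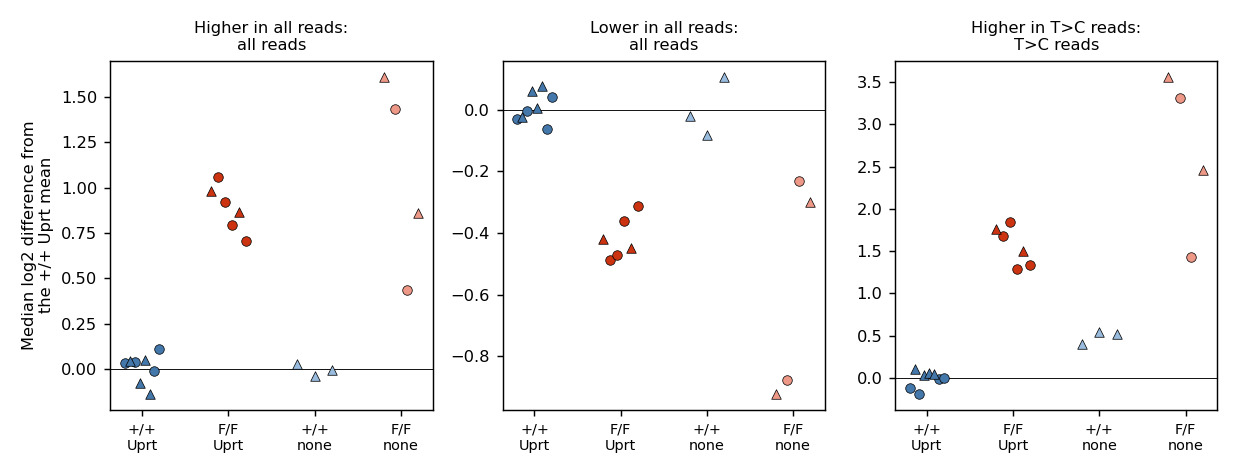
Median log2 difference of each mouse from the mean of the +/+ mice with Uprt, over the 790 loci that rose in all reads (left), the 384 that fell (middle) and the 43 that rose in T>C reads (right, T>C reads); circles are females, triangles males. The loci were chosen from the mice with Uprt, and the F/F mice without Uprt lie on the same side, at 0.44 to 1.61, -0.92 to -0.23 and 1.43 to 3.56.

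The change with Lmna was compared between the sexes in the 14 mice as an interaction, the change in males minus that in females. In all reads 1 locus was called, chr5:103753577-103754407, with an interaction of -2.81 in log2 terms (edgeR adjusted p = 0.0402), and in T>C reads none was called by edgeR (526 at an unadjusted p of 0.05). Only 2 F/F mice were male, which limits this test. In the 4 females against 4 females alone, all reads gave 325 higher and 22 lower loci, and T>C reads 19 higher and 1 lower.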

How the data were processed

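Libraries of 3′ ends (QuantSeq FWD) were made from 1.5 µg of RNA alkylated in 12 mM iodoacetamide and read as 100 single-end bases, per the labels' protocols. The authors deposited 1 table of counts for each of 208307 intervals and 21 libraries: reads, T>C reads, multimapped reads, T bases covered and conversions, per the file headers, whose columns are those of SlamDunk. The deposited CPM column, a score here, served only for the total behind it, 45610951 to 79918830 in the 14 libraries. The submitters' processing notes name mm39 as the build. Aligner settings, any variant filter and the number of conversions that mark a read: not given in the sources used here.

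Of overlapping intervals on 1 strand the most read was kept. Counts were tested in edgeR 4.0.16 (R 4.3.3; TMM, filterByExpr with a minimum count of 10, quasi-likelihood F test) with Lmna genotype and sex as terms, in the same 14 libraries for all reads and T>C reads, at an adjusted p of 0.05. T>C shares were tested on converted and unconverted reads with an effect per library. Standard errors are the fold change over the root of the F statistic. Two-sided exact permutation tests were used for library shares (scipy 1.17.1). Intervals and upper limits of single shares cover counting error only. The scripts were tested on simulated counts first.

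The libraries and gene lists were chosen with earlier results of these data known, the libraries by genotype alone. The gene lists and cell type markers were not run, since 0 transcript IDs could be paired with names. Named loci are the 12 largest rises and falls in all reads with a mean of at least 1 CPM, the 10 largest each way in T>C reads with a mean of at least 1 T>C CPM, and the loci called in the share. The stretches of neighbouring rises, the mitochondrial genes and the locus that differs by sex follow from values or calls. Alternatives were DESeq2 1.42.0, limma 3.58.1 for shares, other scalings, filters, locus definitions and sample sets, and each library left out; 2 alternatives were added after the data were seen. Replicate numbers are in accession order and pair no samples.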

Additional observations from a re-analysis of the deposited data

Results flagged for a closer look

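Single mice stood apart from their group in 12 of the 100 sets of values checked by Dixon's test at its 95% critical value. Some sets share reads and many are loci chosen by their calls. The rate of about 1 in 20 for independent, normally distributed values is therefore no fair reference. Among the +/+ mice with Uprt, replicate 3 had the highest share of T>C reads, 5.93% over all loci and 5.96% on nuclear loci, and the next mouse had 5.17% in both.

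At single loci in all reads, +/+ Uprt replicate 8 had 1.33 CPM at chr11:81937917-81938351 (next 0.496). Replicate 7 of that group had 0.845 CPM at chr7:127749367-127749829 (next 0.377) and 10.8 CPM at chr14:47623138-47623617 (next 7.36). At chr7:46361422-46361549, +/+ Uprt replicate 2 had 24.1 CPM (next 2.57) and F/F Uprt replicate 1 had 32.5 CPM (next 9.81). F/F Uprt replicate 6 had 1.10 CPM at chr3:95791266-95791549 (next 0.795).

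In T>C reads, +/+ Uprt replicate 8 had 2.78 T>C CPM at chr6:129341026-129342266 (next 1.12), and F/F Uprt replicate 1 had 44.1 T>C CPM at chr11:116329132-116329903 (next 31.7). In the T>C share, +/+ Uprt replicate 1 had 75.0% at chr2:13587284-13587289 (next 8.03%) and 56.5% at chr2:13587295-13587636 (next 6.99%).

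The change with Lmna differed between the sexes at 1 locus in all reads, chr5:103753577-103754407, by -2.81 in log2 terms for males minus females (edgeR adjusted p = 0.0402). A mouse without Uprt had a T>C share of at least 20% at this locus too.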

How the results depend on the processing

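No paired analysis was possible because the replicate numbers were given in accession order and pair no mice. All reads called 1174 loci, 347 in females alone, 769 with all 21 libraries in 1 fit, 1700 by DESeq2 and 728 to 1282 with each library left out. With library size alone 96.3% of calls were rises against 67.3%, and 849 of the 1174 calls were kept. T>C reads called 51 loci, 96 by DESeq2, 171 without the low-count filter, 20 in females alone, 18 among labelled loci and 37 to 59 with each library left out. The share test called 4 loci, 2 by limma on log2 odds, 2 by conversions per T, 0 by edgeR without loci of high background share, 1 among labelled loci and 2 to 5 with each library left out. Labelled loci numbered 7473, and 3375 from +/+ mice alone. T>C reads without Uprt called 4 loci, 84 by DESeq2 and 3 to 14 with each library left out. The T>C share per library differed by 0.147 percentage points, 0.0692 to 0.291 with each library left out. At named loci, 475 of 519 other values kept direction and call, 43 lost the call and 1 turned: at chr2:13587295-13587636 the share change became -0.37 by conversions per T, which was not called; the cause was not tested. With each library left out, 545 of 638 kept direction and call, 93 lost the call and 0 turned. Depth limits the T>C readout: 458 of 790 risen loci had too few T>C reads to test.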
